A study of Mus musculus with 2 samples.

Results

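The MAP kinase phosphatases (MKPs) are the dual-specificity phosphatases of the DUSP family that remove phosphate from the threonine and the tyrosine of an active MAP kinase. The 10 catalytically active members, Dusp1, Dusp2, Dusp4, Dusp5, Dusp6, Dusp7, Dusp8, Dusp9, Dusp10 and Dusp16, were taken by their gene symbol in the scanner files, which named 15 probes for them among 56602 probes for 37006 named targets. The family was selected on its S180 minus DMSO differences, so these are given as a description. RNA of mouse cells was hybridised to 2 arrays, with S180 the label of the first and the solvent DMSO that of the second. The labels give no cell type, strain, genotype, dose or exposure time, and do not say what S180 is. Each array measured Cy3-labelled RNA in 1 colour on an Agilent whole-genome design, on the same slide and in the same scan. Since each group is a single array, no difference was checked against replicates or tested. In a bulk sample, fewer cells that make a transcript and less transcript per cell cannot be told apart.

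MKPs act as brakes on MAP kinase signalling, and several are themselves early products of it, so that their transcripts are widely read as a trace of recent pathway activity. The family is commonly divided by location and substrate. Dusp1, Dusp2, Dusp4 and Dusp5 are inducible nuclear enzymes, Dusp6, Dusp7 and Dusp9 are cytoplasmic enzymes that act mainly on ERK, and Dusp8, Dusp10 and Dusp16 act mainly on the stress-activated kinases JNK and p38. Dusp4 and Dusp6 are well-known output genes of an active ERK pathway.

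The upstream sequences of the 4 members that differed by 1.5-fold or more towards S180 are shown so that their letters can be compared, with a motif marked that was chosen with the sequences and the differences in view. Each is the 250 bases before the gene's start, 5′ to 3′ on the gene's strand, from RefSeq on build GRCm38.p6. Capitals mark the cyclic AMP response element (CRE) with 1 free base, TGACNTCA, and the CRE half-site, TGACG, on either strand. The CRE is bound by factors of the CREB and ATF family. The windows lie at chr7:142095285-142095534 (Dusp8, minus strand), chr17:26508473-26508722 (Dusp1, minus strand), chr6:134792629-134792878 (Dusp16, minus strand) and chr1:184034131-184034380 (Dusp10, plus strand).
Dusp8 upstream: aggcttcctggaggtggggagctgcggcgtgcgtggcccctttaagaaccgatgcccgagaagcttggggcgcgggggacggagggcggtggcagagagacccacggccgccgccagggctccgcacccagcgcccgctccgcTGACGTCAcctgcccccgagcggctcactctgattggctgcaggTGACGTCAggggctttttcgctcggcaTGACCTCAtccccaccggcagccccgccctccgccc
Dusp1 upstream: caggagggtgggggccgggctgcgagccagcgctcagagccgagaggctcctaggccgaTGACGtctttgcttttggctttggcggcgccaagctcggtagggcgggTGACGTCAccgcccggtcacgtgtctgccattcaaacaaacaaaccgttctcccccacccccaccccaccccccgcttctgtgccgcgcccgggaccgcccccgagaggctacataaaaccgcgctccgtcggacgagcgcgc
Dusp16 upstream: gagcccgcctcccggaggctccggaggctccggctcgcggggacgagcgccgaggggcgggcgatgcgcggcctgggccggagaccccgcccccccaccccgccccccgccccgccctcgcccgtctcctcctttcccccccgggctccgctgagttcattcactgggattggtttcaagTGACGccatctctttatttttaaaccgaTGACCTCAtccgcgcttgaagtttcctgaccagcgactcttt
Dusp10 upstream: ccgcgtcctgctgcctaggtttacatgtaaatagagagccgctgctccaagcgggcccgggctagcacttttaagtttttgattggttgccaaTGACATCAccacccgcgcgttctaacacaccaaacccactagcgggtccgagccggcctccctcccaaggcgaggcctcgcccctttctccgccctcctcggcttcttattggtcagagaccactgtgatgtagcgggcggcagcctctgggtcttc
Dusp6, an ERK phosphatase whose window at chr10:99262981-99263230 (plus strand) held no match to any motif searched, is shown for contrast.
Dusp6 upstream: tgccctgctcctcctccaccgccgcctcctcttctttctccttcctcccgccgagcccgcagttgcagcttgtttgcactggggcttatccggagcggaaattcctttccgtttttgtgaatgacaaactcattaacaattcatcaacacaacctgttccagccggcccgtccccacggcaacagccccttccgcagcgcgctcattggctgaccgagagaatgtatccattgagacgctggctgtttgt

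The probes of Dusp8, Dusp16 and Dusp5 are shown because several of them report on the same gene. The first 30 of the 60 bases of each probe are given, from the scanner files. The Dusp8 probes lie on chromosome 7 at 149265636 to 149265695 and 149267534 to 149267593, on build mm9, as all probe positions here.
Dusp8 A_51_P114314: agcataggctttccctggtggctttccacc
Dusp8 A_51_P263246: aaagctctgtttttactgtctggtatttaa
Dusp16 A_51_P242634: gtacaaaatggtgattttgagcaaaactag
Dusp16 A_52_P374825: ggctcttagccagaataatgacttaagttt
Dusp16 A_66_P116252: ctgtcagtccttcgtcactaatgtcgtatc
Dusp5 A_55_P2063237: tacagacactgagccctgatatgcagggca
Dusp5 A_66_P120606: cagggggaaaggcaataagttcccgtaaac
The Dusp16 probes lie on chromosome 6 at 134665656 to 134665696, 134687549 to 134687608 and 134665783 to 134665842, in the order shown, and the first of these positions spans 41 bases although the probe has 60. The Dusp5 probes lie on chromosome 19 at 53615682 to 53615741 and 53616779 to 53616838. The files give no exon or intron for them.

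Values below are the scanner software's processed signals, after its spatial detrending, and each difference is the log2 value with S180 less that with DMSO, once an array's 75th percentile is subtracted. A gene is represented by its brightest probe. It was taken as measured where the scanner software's flag put that probe well above background in the S180 and the DMSO sample, as for 20751 targets. All 10 members were measured, and 14 of their 15 probes were well above background on both arrays. The error given is the SD of a difference between single spots, from probes printed in 10 spots each. With measured genes divided by signal into 3 equal classes, it was 0.042 for bright (262 probes), 0.072 for middle (6 probes) and 0.27 for dim genes (11 probes), and it covers the array only. Every member probe was printed once. The labels name no cell type. All 8 melanocyte markers examined were well above background on both arrays, with signals from 4651 (Tyr) to 215584 (Mlana) on the S180 array, and their differences lay between -0.12 and 0.26. Of 6 macrophage markers 5 were measured, with summed signals of 5431 in S180 and 5648 in DMSO. Most of this was Itgam (4718 and 4788), while Lyz2 gave 16.0 and 34.7 and Adgre1 was below background. Of 5 neuron markers 4 were measured, with 9430.1 and 9916, mostly from Tubb3 (6929 and 7313) and Snap25, Rbfox3 being below background. Of 5 T cell markers 3 were measured, with 2323 and 2573, mostly from Lck (1861 and 2064). The B cell, endothelial, muscle, adipocyte and erythroid lists had summed signals from 61.8 to 205 in DMSO. Of 6 epithelial markers 3 were measured, with summed signals of 76.6 and 126, Krt8, Krt18 and Krt5 being below background. These 3 were lower in S180 with a median difference of -0.50, but they were dim and this depended on the background correction. With another correction (normexp) Epcam lay at -0.05, Cdh1 at -0.04 and Krt14 at 0.16. No hepatocyte marker of 4 was well above background. Of 6 fibroblast markers 5 were measured, with a summed signal of 1412 in S180 and 2484 in DMSO and a median difference of -0.48. Col3a1 was below background. Col1a1 lay at -0.02, Col1a2 at -0.83, Dcn at -0.38, and the dim Pdgfra and Lum at -0.48 and -1.72. After normexp correction these 5 lay at -0.02, -0.76, -0.27, -0.23 and -0.56, in the same order. The part of these cell types in the results was not tested. The median gene lay at 0.00 in the main scaling but at -0.28 without scaling and at -0.35 on a scale set by 8 spike-in transcripts, so that differences are best read relative to it.

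The stress-kinase phosphatases were the members with the highest values in S180 relative to DMSO, together with Dusp1. Dusp8 was 2.99-fold higher, Dusp16 1.81-fold and Dusp10 1.72-fold, and Dusp1 was 1.93-fold higher. The ERK phosphatases Dusp6 and Dusp7 had differences of 0.25 and 0.11, which turned negative without scaling and on the spike-in scale, and Dusp9 was 1.63-fold lower. Across the family 1 of 10 members was at least 2-fold higher, where 0.588% of all measured genes were, and 0 were at least 2-fold lower, where 0.169% were. At 1.5-fold 4 members were higher and 1 was lower, where 3.08% and 1.71% of all measured genes were. The split of all measured genes at 2-fold, 122 higher and 35 lower, depended on the scaling and was 62 and 173 without it and 49 and 256 on the spike-in scale. The members were chosen with these values known, so the counts describe them and support nothing further. The median of the 10 members was 0.37 with an SD of 0.63 between members, and the median of all measured genes was 0.00.

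**Figure D1:**
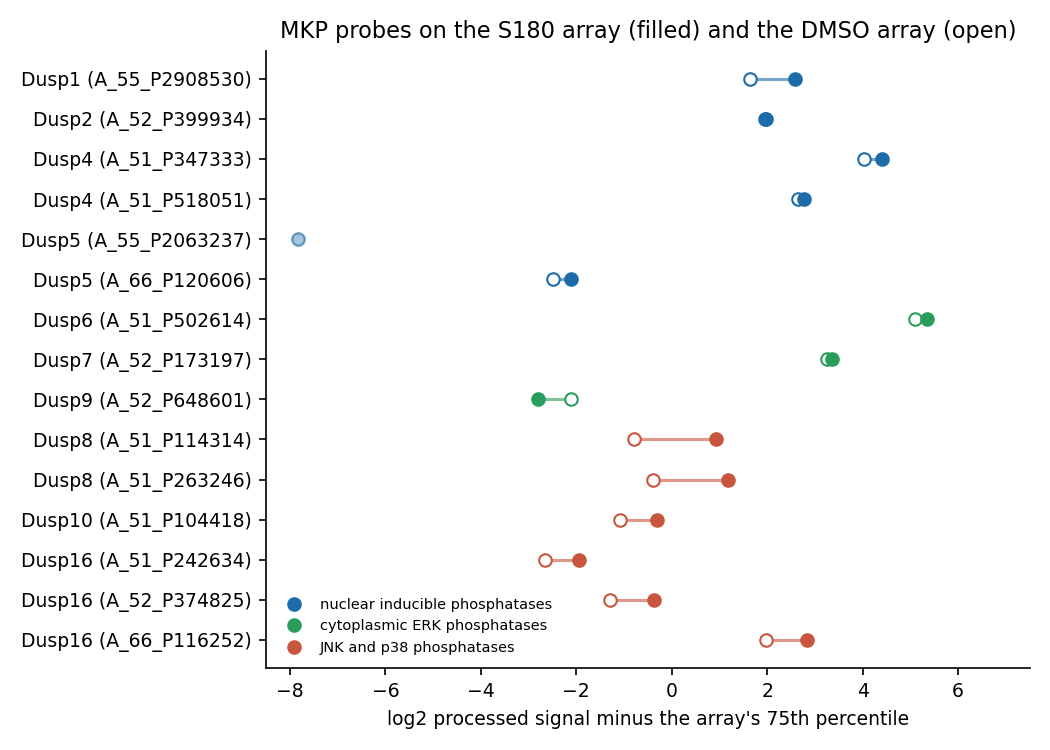
Each line joins a probe's value on the array labelled DMSO (open) and on that labelled S180 (filled), as log2 processed signal minus the array's 75th percentile. The 6 probes of Dusp8, Dusp10 and Dusp16 were all higher on the S180 array, the Dusp9 probe was lower, and the pale points mark the Dusp5 probe that was not well above background.

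Dusp8 is a cytoplasmic and nuclear phosphatase of JNK and p38 that is known from brain and heart. Its probe A_51_P263246 gave 1393 with S180 and 566 with DMSO, a difference of 1.58 with an error of 0.072. The other probe, A_51_P114314, gave 1174 and 429.9, a difference of 1.73. The S180 array was the higher at both positions, which lie in the same transcript. Dusp8 ranked 25th from the top among all measured genes, and of the 891 genes within 0.25 (log2) of its mean signal 3 differed as much or more towards S180. Without any scaling the signals still stood at 2.46-fold and 2.73-fold. The gene was at least 2-fold higher in each of the 10 alternative settings for its value, from 1.23 on the spike-in scale to 1.66 with the mean of its probes.

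Dusp16, a JNK phosphatase that shuttles between nucleus and cytoplasm, had 3 measured probes. Its brightest, A_66_P116252, gave 4409.9 with S180 and 2959.6 with DMSO, a difference of 0.86. A_52_P374825 gave 477 and 306, a difference of 0.92. A_51_P242634, the probe whose listed position spans 41 bases, gave 160.1 and 118.6, a difference of 0.71 with the larger error of dim signals, 0.27. All 3 probes were thus higher on the S180 array, by less than 2-fold. Dusp10, which removes phosphate from p38 and JNK, had 1 probe, on chromosome 1 at 185898608 to 185898667. It gave 497 with S180 and 350.5 with DMSO, a difference of 0.78 with an error of 0.072. Of 869 genes of like signal 8 differed as much or more towards S180. The median of the 3 stress-kinase phosphatases lay 0.85 above the median gene.

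Dusp1, the archetypal immediate early MKP, acts on p38, JNK and ERK in the nucleus. Its probe, on chromosome 17 at 26642624 to 26642683, gave 3701 with S180 and 2325 with DMSO. The difference was 0.95 with an error of 0.042, just short of 2-fold, while Dusp8 was the 1 member past it. Dusp1 ranked 143rd from the top of all measured genes, and 6 of 1075 genes of like signal differed as much or more towards S180. Dusp2, a nuclear phosphatase known from activated leukocytes, gave 2369.55 and 2946.5 on a probe on chromosome 2 at 127163930 to 127163989. Its difference of -0.03 was smaller than the error of 0.072.

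Dusp4, a nuclear phosphatase of ERK and JNK, had 2 measured probes on chromosome 8. The brighter, at 35884806 to 35884865, gave 12964 with S180 and 12207 with DMSO, a difference of 0.37. The other, at 35882045 to 35882104, gave 4208 and 4697, a difference of 0.12. Both differences were towards S180 after scaling, and they lay further apart than the error of 0.042. Dusp5, a nuclear phosphatase that acts on ERK alone, gave 143 and 134 on A_66_P120606, a difference of 0.38 with an error of 0.27. Its other probe, A_55_P2063237, was not well above background on either array, with signals of 2.69 and 3.29, so that Dusp5 rests on a single probe. The median of the 4 nuclear members lay 0.37 above the median gene.

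Dusp6, the main cytoplasmic brake on ERK, gave 24976 with S180 and 25489 with DMSO on its probe on chromosome 10 at 98729985 to 98730044. Its difference after scaling was 0.25, and 37 of 457 genes of like signal differed as much or more towards S180. Dusp7, its close relative, gave 6279 and 7084 on chromosome 9 at 106277697 to 106277756, a difference of 0.11. The raw signals of both were lower on the S180 array, and the sign of their differences depended on the scaling. Without scaling the difference was -0.03 for Dusp6 and -0.17 for Dusp7, and on the spike-in scale it was -0.10 and -0.25. Relative to the median gene both stayed above it, by 0.19 to 0.27 for Dusp6 and 0.07 to 0.13 for Dusp7 over all settings.

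Dusp9, an ERK phosphatase known for its role in the placenta and in embryonic stem cells, was the 1 member at least 1.5-fold lower in S180. Its probe, on chromosome X at 70888467 to 70888526, gave 87.7 with S180 and 174 with DMSO, a difference of -0.70 with an error of 0.27. It ranked 189th from the bottom of all measured genes, and 1.16% of the 864 genes of like signal lay lower. It was a dim probe, at the 28.0th percentile of measured genes by signal, and its value depended on the background correction and the scaling, with -0.42 after normexp correction and -1.06 on the spike-in scale. The median of the cytoplasmic ERK phosphatases lay 0.10 above the median gene.

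**Figure D2:**
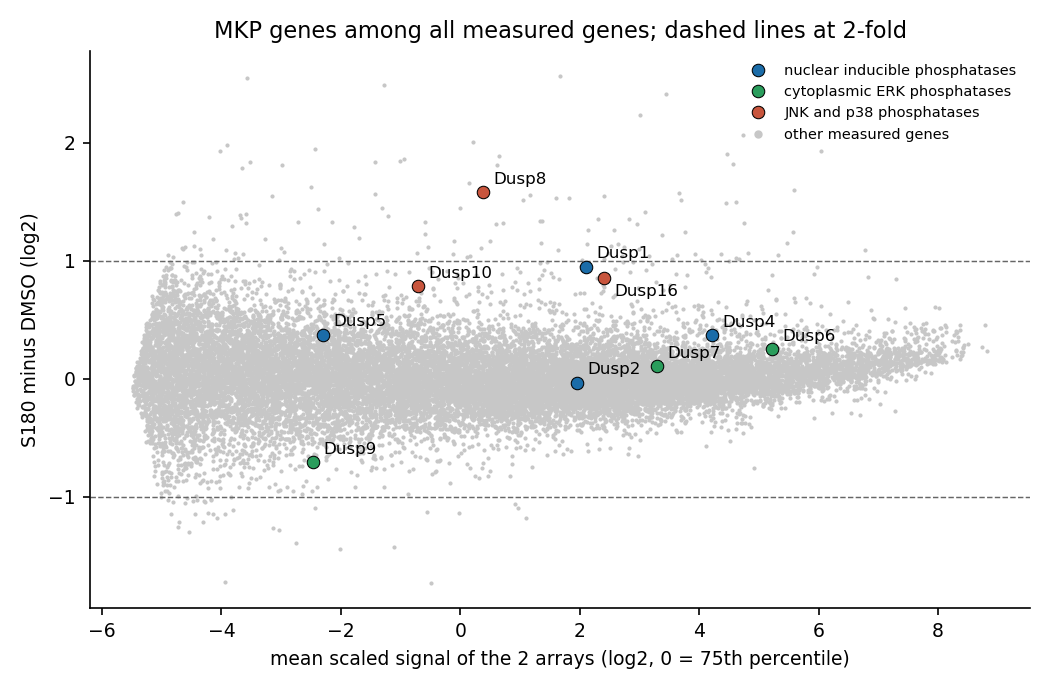
Each grey point is 1 of the 20751 measured genes, by its mean scaled signal and its S180 minus DMSO difference (log2), with the 10 phosphatases in colour and dashed lines at 2-fold. Dusp8 lies above the upper line, Dusp1, Dusp16 and Dusp10 lie between 0.78 and 0.95, and Dusp9 lies at -0.70.

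The upstream windows were compared next. Windows were read for 8 members, all but Dusp4 and Dusp9, and 32851 windows of the same length served as background. The start in the RefSeq table is not the outermost boundary of the gene for Dusp7, Dusp8 and Dusp16. The full CRE, TGACGTCA, occurred 2 times upstream of Dusp8, at -107 to -100 and at -63 to -56 from the gene's start, and a single time upstream of Dusp1, at -143 to -136. It was present in 1.55% of all windows, and 10 of the 32851 windows held it 2 or more times. Counted per gene among the 11853 measured genes with a window, the closer background for these members, its share was higher, 2.86%. With 1 free base, TGACNTCA, it was present upstream of Dusp8 (3 matches), Dusp1 (1), Dusp10 (1) and Dusp16 (1), and of none of Dusp2, Dusp5, Dusp6 and Dusp7. It was present in 7.49% of all windows. The further match of Dusp8 lay at -36 to -29, that of Dusp16 at -42 to -35 and that of Dusp10 at -157 to -150. The 4 members with this motif were the 4 that were at least 1.5-fold higher in S180 after percentile scaling, whereas without scaling and on the spike-in scale Dusp10 (0.50 and 0.43) and Dusp16 (0.58 and 0.50) were below 1.5-fold. Since the motifs were chosen with both in view, this overlap supports nothing further, and a match of letters is neither a bound site nor a cause.

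The CRE half-site, TGACG, which is contained in the full CRE on both strands, occurred upstream of Dusp1, Dusp5, Dusp8 and Dusp16 and in 17.8% of all windows. The core of the hypoxia response element, ACGTG, occurred upstream of Dusp1, Dusp2 and Dusp5 and in 16.6% of all windows, and not upstream of Dusp8, Dusp10 or Dusp16. In Dusp1 and Dusp2 its pair of matches overlaps on opposite strands in a single stretch. The CArG box, the site of serum response factor, occurred 2 times upstream of Dusp5 and in 1.47% of all windows. The AP-1 site TGACTCA, the ATF4 site core TGATGNAA and the ETS core CCGGAAG had no match upstream of these 8 genes, and were present in 4.46%, 3.45% and 6.91% of all windows. All motifs were searched on both strands. The windows of the members were rich in G and C, from 56.4% for Dusp6 to 77.2% for Dusp7, against a median of 52.4% for all windows, and the part of base composition in these matches was not tested.

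**Figure D3:**
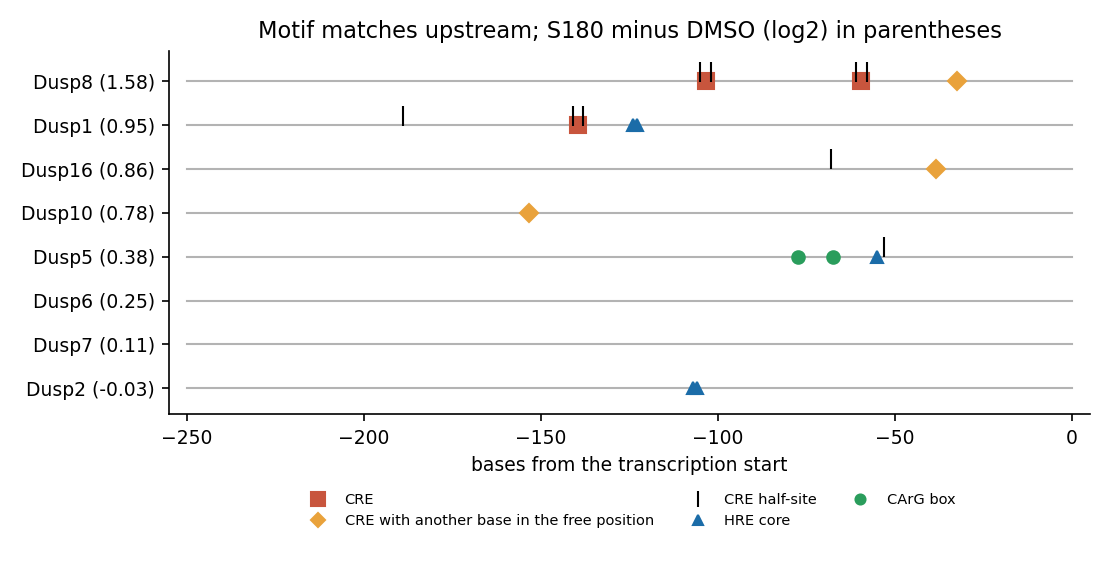
Motif matches in the 250 bases upstream of 8 members, ordered by their S180 minus DMSO difference (log2, in parentheses), with distance from the gene's start in bases. The CRE and its form with another base in the free position (squares and diamonds) appear in the upper 4 genes, from 0.78 to 1.58, and in none of the lower 4.

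Of 14 genes of MAP kinases, the substrates of these phosphatases, 12 were measured, with a median of -0.02. None of the 12 was 1.5-fold apart, where 3.08% of all measured genes were higher and 1.71% lower by that much, so a count of 0 in a list of this size is near the background. Mapk3 (ERK1) had a difference of 0.08. Mapk8 (JNK1) had a difference of 0.27, Mapk9 (JNK2) of -0.04 and Mapk14 (p38 alpha) of 0.00. Of all 12 the 3 with the largest differences were lower in S180, namely Mapk15 at -0.44, Mapk12 (p38 gamma) at -0.40 and Mapk11 (p38 beta) at -0.32.

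All 7 MAP2 kinases and 20 of 22 MAP3 kinase and RAF genes were measured, with medians of 0.01 and 0.00. Map2k1, which encodes the ERK activator MEK1, had the largest difference, 0.53 (7128 with S180 and 5983 with DMSO), while Map2k6 and Map2k3, activators of p38, lay at -0.39 and 0.10. Among the MAP3 kinases Map3k1 lay at 0.35, Map3k13 at 0.32 and Map3k5 at -0.24. Map3k13 (82.7 with S180 and 80.6 with DMSO) and Map3k5 (138 and 198) were dim, where the error was 0.27. After normexp correction Map3k13 lay at 0.26 and Map3k5 at -0.16. The 11 measured kinases activated by MAP kinases had a median of -0.05, with Rps6ka3 at -0.31, Rps6ka2 at -0.24 and Mknk2 at 0.23. Rps6ka2 was dim (66.0 with S180 and 94.7 with DMSO) and lay at -0.05 after normexp correction. The 11 measured scaffold genes had a median of 0.25. Among them Mapk8ip2 lay at 0.41, Mapk8ip1 at 0.35 and Ksr2 at 0.34. Mapk8ip2 (31.3 with S180 and 28.6 with DMSO) and Ksr2 (35.6 and 34.1) were dim, with an error of 0.27. On the spike-in scale, where the median gene lay at -0.35, Mapk8ip2 lay at 0.06, Mapk8ip1 at -0.0009 and Ksr2 at -0.01. The products of Mapk8ip2 and Mapk8ip1 assemble JNK modules.

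Other dual-specificity phosphatases, most of which lack the kinase-binding domain of the MKPs, had a median of -0.03 over 17 measured genes of 23. Epm2a, which encodes the glycogen phosphatase laforin, was the 1 gene of this list at least 2-fold higher, where 0.588% of all measured genes were. It gave 190.9 with S180 and 75.1 with DMSO, a difference of 1.63 with the error of dim signals, 0.27. After normexp correction its difference was 1.13. Dusp23, at 29.9 and 20.6, had a difference of 0.82 that was 0.33 after normexp correction. Dusp3 (VHR), an atypical phosphatase of ERK and JNK, gave 17941 and 15436, a difference of 0.50, and Dusp14 had a difference of 0.41. Dusp12 was the lowest of the measured genes, at -0.32, and Dusp19 and Dusp22, which act on the JNK pathway, lay at -0.16 and -0.17. Dusp26 was well above background with DMSO alone, where it was at least 1.14-fold higher than on the S180 array (signals of 18.2 and 2.83), a bound against the dimmest signal well above background there. Styxl1 was well above background on the S180 array alone, at least 1.30-fold higher there. The tyrosine and serine/threonine phosphatases that also act on MAP kinases had a median of 0.05 over 8 measured genes of 10, with Ptpn5 at 0.40, Ppp2cb at 0.15 and Ppp2r1a at 0.13.

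**Figure D4:**
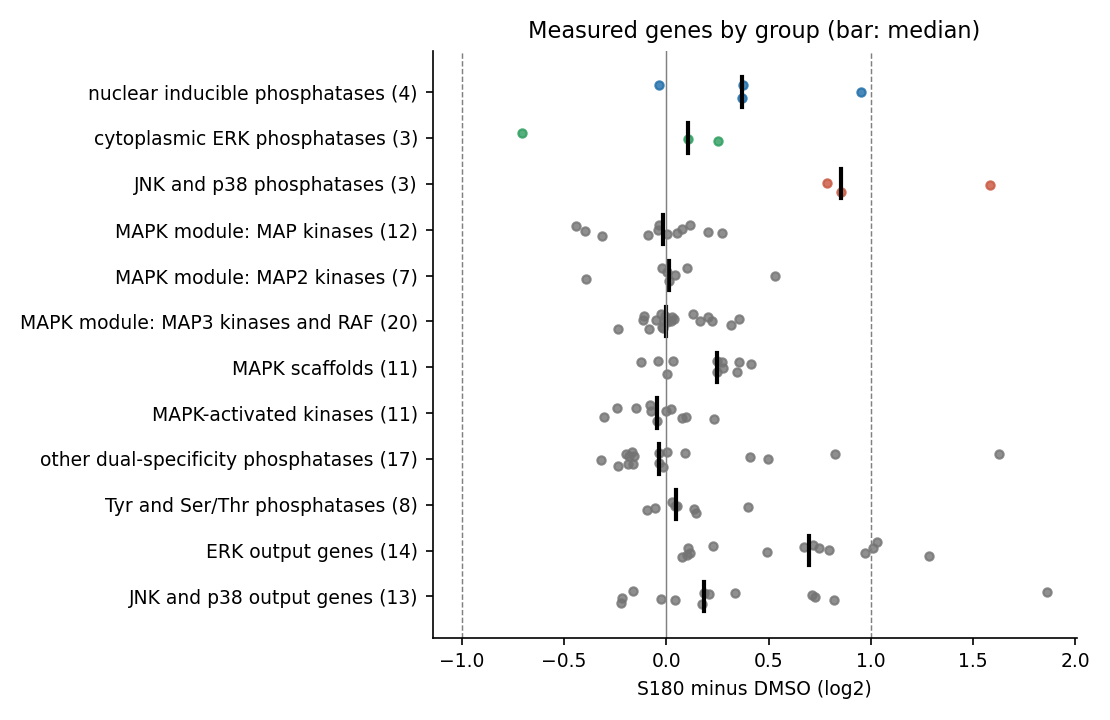
S180 minus DMSO differences (log2) of the measured genes in each group, with the number measured in parentheses, the median as a bar and dashed lines at 2-fold. The stress-kinase phosphatases lie between 0.78 and 1.58, while the medians of the MAP, MAP2 and MAP3 kinases lie between -0.02 and 0.01.

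Lists of genes named for outputs of the same pathways were set beside the phosphatases. Of 17 ERK output genes 14 were measured, and all 14 lay above the median gene, with a median of 0.70, although after normexp correction Spry1 lay below it (0.02 against 0.03). Egr1 (1.29), Fos (1.03) and Etv5 (1.01) were 2-fold higher, and Ier3 lay at 0.97, whereas on the spike-in scale and after normexp correction 0 of the 14 were 2-fold higher. Of all measured genes 122 were 2-fold higher, against 49 on the spike-in scale and 74 after normexp correction. Among the negative regulators of the ERK pathway in this list Spry2 lay at 0.75, Spred2 at 0.67, Spred1 and Spred3 at 0.11 and Spry1 at 0.08. Spry4 was well above background on the S180 array alone, at least 1.41-fold higher there (signals of 19.1 and 6.20), and Spry3 on neither array. Of the 13 measured genes in the list named JNK and p38 output genes, 9 lay above the median gene, with a median of 0.19. This list is mixed, since it also holds Atf2, Elk1, Elk4, Mef2a, Mef2c and Mef2d. These encode factors that MAP kinases phosphorylate as proteins, so their transcripts are not a reading of pathway output. They lay between -0.22 and 0.21, and the median of this list is not comparable with that of the ERK list. Atf3 was 3.64-fold higher (610 with S180 and 204 with DMSO, a difference of 1.86). Jun lay at 0.82, Ddit3 at 0.73 and Gadd45a at 0.71, while Gadd45b lay at -0.16. These lists hold genes whose differences were already known when they were written.

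The members' values were followed through the alternative settings. The 4 members that were at least 1.5-fold higher kept a positive difference in each of the 10 settings, but without scaling and on the spike-in scale only Dusp8 and Dusp1 stayed at least 1.5-fold higher. The lowest values, all on the spike-in scale, were 0.60 for Dusp1, 0.50 for Dusp16 and 0.43 for Dusp10. Dusp4 and Dusp5 were near 0 on that scale, at 0.01 and 0.02. Dusp9 stayed below 0 in each setting. Relative to the median gene of each setting, 8 or 9 members lay above it.

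**Figure D5:**
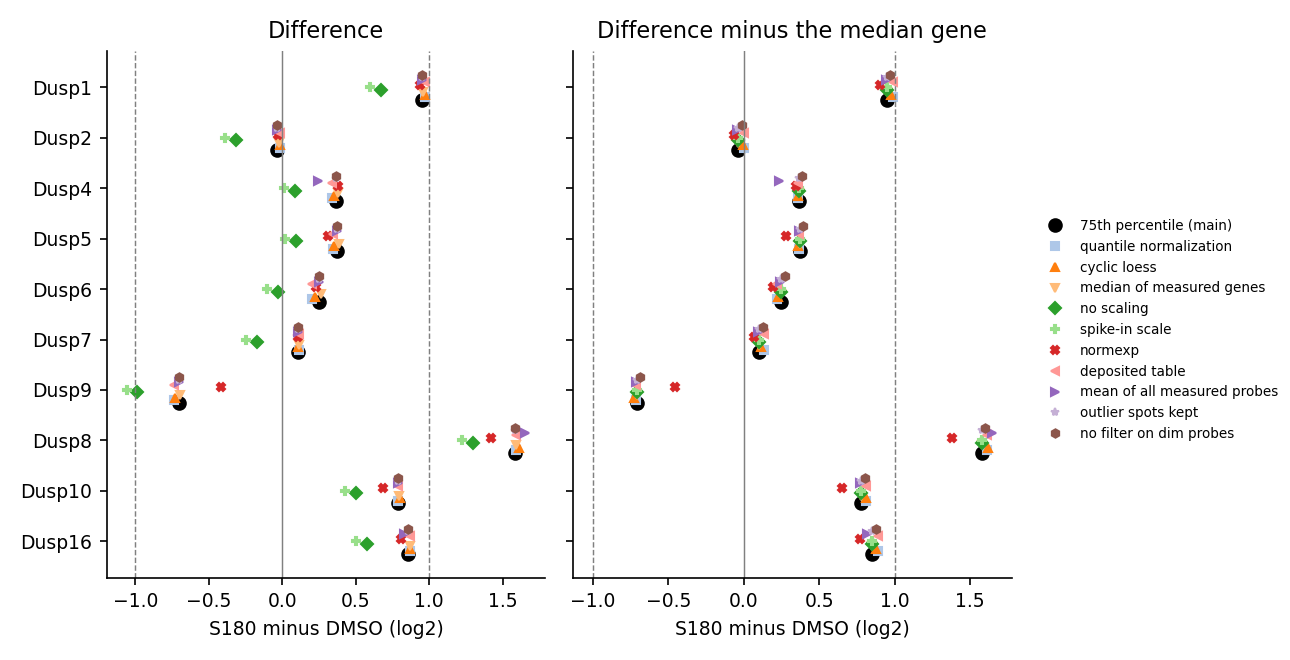
S180 minus DMSO differences (log2) of the 10 members in the main setting (black) and 10 alternatives, as such (left) and relative to the median gene of each setting (right), with dashed lines at 2-fold. Without scaling and on the spike-in scale all values move to the left together, by about the shift of the median gene to -0.28 and -0.35.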

How the data were processed

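The deposited scanner files give linear spot intensities from Agilent Feature Extraction 10.7.1.1, per the file headers. Per the file headers, the processed intensity was detrended within the array and surrogate values were used for dim spots, and the flags for background, saturation and outliers have no unit but 0 or 1 and count as other values of the deposited files. No source used here says how the log2 values of the deposited table were made. Quantile normalisation of the log2 signals came within 0.01 of them for 99.78% (S180) and 99.74% (DMSO) of 56745 probes, with a median of 5.27 in both columns, which settled scale and direction.

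Control spots and outlier-flagged spots (120 and 195) were left out, spots of a probe averaged, and the 75th percentile over 56602 probes subtracted. Probes were named through accessions or unique synonyms in a RefSeq table of GRCm38.p6, used for names and upstream windows only; members kept the name in the files. Of 59305 spots other than controls, 61.91% and 60.57% were well above background and 0 were saturated; the number of arrays limits the precision. The processing was tested on simulated data. Alternatives used limma 3.58.1 in R 4.3.3 (normexp with an offset of 50, cyclic loess). The members, lists and motifs were chosen with earlier results of these data known. Named genes were all members, the MAP kinases ERK1, JNK1, JNK2 and p38 alpha, and any other dual-specificity phosphatase. In each further list they were genes 2-fold apart and the 3 with the largest differences. Gadd45a, Gadd45b, Ier3, Spry1, Spry2, Spry3, Spry4, Spred1, Spred2 and Spred3 were added after their values were seen. So were Atf2, Elk1, Elk4, Mef2a, Mef2c, Mef2d and the markers.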

Additional observations from a re-analysis of the deposited data

How the results depend on the processing

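No paired analysis was possible because each group has 1 array, and no replicate could be left out. The count of members at least 2-fold higher stayed at 1 in each of the 11 alternative settings at that threshold, and was 4 at 1.5-fold and 0 at 3-fold. The count at least 2-fold lower was 1 on the spike-in scale and 1 at 1.5-fold, in both cases Dusp9. With the mean of all measured probes the nuclear members lay 0.30 above the median gene, the MAP3 kinases 0.083 and the MAP kinase-activated kinases 0.067. With normexp correction the stress-kinase phosphatases lay 0.77 above it and the ERK output genes 0.58, and 0 of the latter were 2-fold higher, as on the spike-in scale, against 1 without scaling. For the lists whose median changed sign or moved, the cause was not tested. Without scaling and on the spike-in scale all 10 member values moved by more than the error, with normexp 4, with the mean of probes 2, and 1 (Dusp6, at 0.20) both with quantile normalisation and in the deposited table. Dusp5, Dusp9 and a Dusp16 probe had dim signals, where the error of a difference was 0.27.
Over all measured genes 122 were at least 2-fold higher and 35 lower, against 62 and 173 without scaling, 49 and 256 on the spike-in scale, 74 and 7 after normexp, 1773 and 810 with no filter on dim probes, and 60 and 3 in the brighter genes, among which 7 members remained.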

Other observations

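The CRE with 1 free base, TGACNTCA, was also counted upstream of the measured genes that have a RefSeq window. It was present for 7.52% of 11853 such genes, for 11.0% of the 299 with a 1.5-fold or larger difference towards S180 and for 4.59% of the 196 with one towards DMSO. The full CRE, TGACGTCA, was present for 2.86% of all of them, for 2.68% of those 1.5-fold higher, for 0.510% of those 1.5-fold lower (1 of 196) and for 4.23% of those 2-fold higher (3 of 71). The motif was chosen with the members in view, and these shares include the members. Dusp8, Dusp1, Dusp16 and Dusp10 are among the genes 1.5-fold higher that hold TGACNTCA. Dusp8 and Dusp1 are among those that hold the full CRE, and Dusp8 is 1 of the 3 at 2-fold. The shares are thus no separate support for the overlap seen in the members. They describe 2 arrays, and no difference between them was tested.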
